A study of Homo sapiens with 12 samples.

Results

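The expression of 8 transcription factors of the sympathoadrenal lineage was examined in SH-SY5Y neuroblastoma cells that were differentiated under peroxide stress. The factors PHOX2A, HAND1, HAND2, GATA2, GATA3, ISL1, TBX2 and INSM1 were taken by name from the 55765 gene symbols that were counted. SH-SY5Y is an established, clonal human neuroblastoma line, and all-trans retinoic acid (ATRA) makes its neuroblasts leave the cell cycle and grow neurites. RNA depleted of ribosomal RNA was sequenced from 12 libraries in 2 experiments, each with 3 control and 3 treated libraries, and all 12 received 10 μM ATRA for 7 days. The co-treatment libraries received hydrogen peroxide (H2O2) together with ATRA throughout, the pre-treatment libraries received H2O2 beginning 72 h before ATRA, and the controls received ATRA alone. The H2O2 dose is given as 10 mM in the deposited description and as 10 μM in the methods of the study. The sources used here do not say whether replicates were separate cultures, so p-values measure the spread between these libraries, which may be technical.

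Noradrenergic neurons of the sympathetic ganglia and chromaffin cells of the adrenal medulla arise from the neural crest, and a small set of transcription factors that bind each other's enhancers establishes and keeps their identity. The homeodomain factor PHOX2A and the LIM-homeodomain factor ISL1, the basic helix-loop-helix factors HAND1 and HAND2, the zinc finger factors GATA2 and GATA3, the T-box factor TBX2 and the zinc finger factor INSM1 belong to this set. In neuroblastoma, many of these genes are held in the adrenergic cell state by large clusters of enhancers, and they are low in the mesenchymal cell state.

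Library depth ran from 27576276 to 98287391 counts on genes. Levels are given in CPM, the counts on a gene relative to library size, scaled with TMM factors over the 12 libraries, and the log2 fold change (log2FC) compares treated with control libraries within an experiment. The libraries differed in the share of counts on small structured RNAs such as snoRNAs and 7SL RNA, which ranged from 1.58% to 17.6%. Control replicates 1 and 2 of the pre-treatment experiment stood apart, with shares of 1.58% and 2.87%, whereas control replicate 3 had 17.6% and the 3 treated libraries had 13.2% to 15.0%. The same 2 controls had 0.800 and 0.830 reads outside annotated genes for each read on a gene, against 0.200 to 0.462 in the other 10 libraries. Divided by its degrees of freedom, the chi-square of the counts came to 40.1 for this pair of controls, and to 545 and 499 when each was set against control replicate 3. The pre-treatment fold changes of the factors are therefore given with and without control replicate 3. Without it, only the 2 controls that stood apart are left. In that comparison the effect of H2O2 and this difference between libraries cannot be told apart, whatever is said to rise or fall.

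The cells were described with 9 neuroblast markers, whose summed level lay between 3063 and 4797 CPM in every library. It was 4303 to 4797 CPM in co-treatment controls and 3515 to 4184 CPM in co-treated libraries. In the pre-treatment experiment it was 3063 to 4454 CPM in controls and 3600 to 3886 CPM in treated libraries. TH, the rate-limiting enzyme of catecholamine synthesis and a defining noradrenergic marker, was nearly absent, at 0.0104 to 0.263 CPM. DBH, which makes noradrenaline from dopamine, was present at 124 to 1097 CPM. Of 8 Schwann cell and neural crest markers, SOX10 stayed below 1 CPM and FOXD3 had no count, and the list summed to 6.02 to 8.43 CPM. The 6 immune markers summed to at most 2.33 CPM and the 6 epithelial markers to 5.72 to 15.2 CPM.

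Of the 8 factors, 7 were expressed in every library, and their levels were ordered per kilobase of exon (CPM per kb). PHOX2A and GATA2 were the highest, at 157 ± 47.4 and 136 ± 40.3 CPM per kb (SD, n = 12), followed by HAND2 at 113 ± 22.1 CPM per kb. PHOX2A exceeded GATA2 in 9 of 12 libraries and GATA2 exceeded HAND2 in 8 of 12, so these neighbours overlapped within their spread. HAND2 exceeded ISL1 in every library, and ISL1 (48.3 ± 6.95 CPM per kb), TBX2 (33.1 ± 7.88), HAND1 (25.4 ± 7.26) and GATA3 (16.1 ± 9.42) followed. ISL1 exceeded TBX2 in 11 of 12 libraries, TBX2 exceeded HAND1 in 11 and HAND1 exceeded GATA3 in 10. Thus the paralogues of each pair were expressed unequally, with GATA2 far above GATA3 and HAND2 far above HAND1. The expressed genes lie in GRCh37 at chr11:71950121-71956708 (PHOX2A), chr3:128198270-128212044 (GATA2), chr5:50679282-50690564 (ISL1), chr17:59477204-59486827 (TBX2), chr5:153854532-153857787 (HAND1) and chr10:8087341-8117161 (GATA3), and on chromosome 4 for HAND2.

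INSM1, a zinc finger factor of neuroendocrine and sympathoadrenal precursors, was the exception. It had 6 reads in all, 5 in co-treatment control replicate 1 and 1 in pre-treatment control replicate 2. In the other 10 libraries it had none, and a count of 0 allows up to 3 counts, which is 0.0311 to 0.107 CPM at these depths and covers counting error only. INSM1 failed the filter on low counts and no comparison was made for it. Its single-exon relative INSM2 was measured in every library.

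ISL1 was the steadiest of the 7 expressed factors, with a highest level 1.55 times its lowest over the 12 libraries. The same ratio was 1.85 for HAND2, 2.34 for HAND1, 2.44 for GATA2, 2.56 for TBX2, 3.41 for PHOX2A and 4.88 for GATA3.

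**Figure D1:**
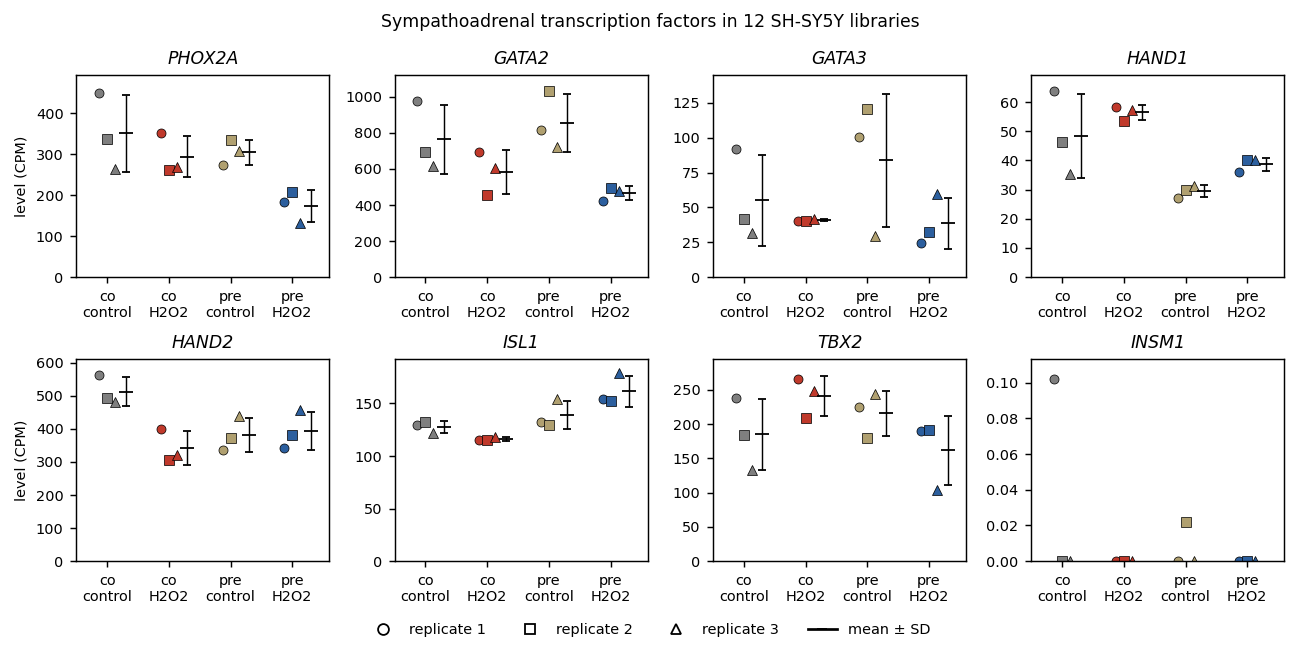
Level of each of the 8 factors in CPM (vertical axis, linear, from 0) in the 12 libraries by group (horizontal axis), where marker shapes give replicates 1 to 3 and bars give the mean ± SD of 3 libraries (not drawn for INSM1). The 3 co-treated HAND2 points lie at 306 to 400 CPM, below the 3 controls at 482 to 564 CPM, and pre-treatment control replicate 3 lies at 29.6 CPM for GATA3, far below the other 2 controls.

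The region upstream of HAND2 and of ISL1 is shown because these were the 2 factors whose co-treated libraries all lay below their controls, and because HAND2 overlaps an antisense gene. HAND2 lies on the reverse strand of chr4:174446120-174451380 (GRCh37), and HAND2-AS1 lies on the forward strand at chr4:174448421-174580847. The genes overlap, and since the strand setting of the counting is not given in the sources used here, reads of the overlap cannot be told apart. The 250 bases before the RefSeq start (sequence from the GRCh38.p14 table, placed on GRCh37 by exact match) run over chr4:174451381-174451630 on the reverse strand for HAND2 and over chr5:50679032-50679281 on the forward strand for ISL1, 5′ to 3′. Capitals mark the GATA motif AGATAA on either strand and the homeodomain motif TAATTA, which overlap each other in HAND2.
HAND2: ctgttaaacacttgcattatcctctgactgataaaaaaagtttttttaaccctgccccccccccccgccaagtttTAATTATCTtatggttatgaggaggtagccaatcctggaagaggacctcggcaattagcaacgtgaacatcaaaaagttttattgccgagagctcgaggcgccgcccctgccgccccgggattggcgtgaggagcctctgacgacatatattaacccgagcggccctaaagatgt
ISL1: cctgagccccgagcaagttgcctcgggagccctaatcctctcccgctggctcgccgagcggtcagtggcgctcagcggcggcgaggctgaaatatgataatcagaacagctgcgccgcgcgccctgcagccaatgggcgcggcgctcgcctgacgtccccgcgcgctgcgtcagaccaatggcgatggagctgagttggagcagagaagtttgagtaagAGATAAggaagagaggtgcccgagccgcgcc
AGATAA or its reverse complement was found in 9.17% of the 35116 RefSeq windows of this length, and TAATTA in 4.35%. Of the 6 factors with an entry in the table, HAND2 and ISL1 held AGATAA and HAND2 held TAATTA. Both motifs were searched on both strands. The E-box motif CAGCTG, present in 14.0% of windows, was found for GATA2, GATA3 and ISL1, and the E-box motif CATCTG, present in 12.2%, for none of them. These letters describe the windows and say nothing of binding in these cells.

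In the co-treatment comparison, which asks how H2O2 given during differentiation changes the cells, HAND2 showed the clearest difference. HAND2 specifies sympathetic neurons and their noradrenergic enzymes. Its level was 564, 493 and 482 CPM in control replicates 1 to 3 and 400, 306 and 320 CPM in treated replicates 1 to 3. The groups did not overlap, with means of 513 ± 44.8 and 342 ± 50.7 CPM (SD, n = 3 each). The log2FC was -0.58 (SE 0.14), which missed the threshold in edgeR's quasi-likelihood test (FDR 0.119), although DESeq2 (FDR 0.00984) and edgeR's exact test (FDR 0.0264) called it.

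ISL1, which drives sympathetic and sensory neuron differentiation, moved far less. Its level was 129, 132 and 121 CPM in the controls and 116, 115 and 118 CPM in the treated libraries. The groups did not overlap but the log2FC was only -0.13 (SE 0.11, FDR 0.851 in edgeR's quasi-likelihood test). Of the 7 tested factors, these 2 had every treated library below every control, as did 7.37% of all 22089 genes tested.

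The other 5 factors overlapped between co-treated and control libraries. PHOX2A, an activator of the DBH and TH promoters, had 450, 338 and 263 CPM in controls and 351, 262 and 268 CPM in treated libraries. GATA2, which acts early in sympathetic neuron specification, had 979, 697 and 616 against 696, 455 and 603 CPM. Their log2FC values were -0.25 (SE 0.19) and -0.38 (SE 0.19). For both genes control replicate 1 was the highest library of the experiment, and without it the log2FC was -0.03 for PHOX2A and -0.16 for GATA2.

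GATA3, which is needed for the survival and the noradrenergic enzymes of sympathetic cells, was 92.2 CPM in control replicate 1 and 41.5 and 31.5 CPM in the other controls, against 40.0, 40.5 and 41.5 CPM in treated libraries. Its log2FC of -0.44 (SE 0.30) rested on that control, and without it the log2FC was 0.16. HAND1, the closest relative of HAND2, had 63.7, 46.4 and 35.3 against 58.4, 53.5 and 57.4 CPM, with a log2FC of 0.22 (SE 0.18). TBX2, a T-box repressor linked to proliferation in neuroblastoma, had 238, 184 and 134 against 266, 208 and 248 CPM, with a log2FC of 0.38 (SE 0.19). With single libraries left out, the log2FC of HAND1 ran from 0.04 without control replicate 3 to 0.47 without control replicate 1, and that of TBX2 from 0.19 to 0.60 for the same libraries. The 3 co-treated libraries agreed more closely than the controls for GATA3 and HAND1.

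Counted together, 0 of 7 factors passed an FDR of 0.05 in edgeR's quasi-likelihood test, where 0.598% of all 22089 genes did. DESeq2, edgeR's exact test and the fit without a filter on low counts each called 1, HAND2. At an unadjusted p below 0.05, 1 of 7 factors passed, against 8.15% of all genes. The median log2FC was -0.25 over the 7 factors and -0.00095 over all genes tested. In these cell populations, a lower level can come from fewer cells of a kind or from less RNA per cell, which cannot be told apart.

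The antisense gene HAND2-AS1 gave the same sign as HAND2, with means of 451 ± 60.6 CPM in controls and 356 ± 26.2 CPM in co-treated libraries (SD, n = 3 each) and a log2FC of -0.34 (SE 0.14, FDR 0.521 in edgeR's quasi-likelihood test). The ratio of HAND2-AS1 to HAND2 counts was 0.790 to 0.980 in the controls and 0.826 to 1.20 in the co-treated libraries. It was 0.932 to 1.58 in the pre-treatment controls and 1.30 to 1.32 in the pre-treated libraries.

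The pre-treatment comparison asks what H2O2 given before differentiation leaves behind, and PHOX2A, GATA2 and HAND1 were the factors whose groups did not overlap. PHOX2A was 273, 334 and 308 CPM in control replicates 1 to 3 and 183, 207 and 132 CPM in treated replicates 1 to 3. GATA2 was 814, 1030 and 720 CPM in controls and 422, 496 and 476 CPM in treated libraries. Both were lower in each treated library than in any control. The log2FC was -0.78 (SE 0.21) for PHOX2A and -0.85 (SE 0.20) for GATA2, each with an FDR of 0.320 in edgeR's quasi-likelihood test.

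HAND1 went the other way, with 27.2, 29.9 and 31.2 CPM in controls and 36.1, 40.0 and 40.0 CPM in treated libraries. All treated libraries lay above the controls, and the log2FC was 0.42 (SE 0.16, FDR 0.373 in edgeR's quasi-likelihood test). Over all 24743 genes tested, treated libraries lay below every control in 8.47% and above every control in 7.97%.

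GATA3 showed how far the result depended on control replicate 3. It was 101 and 121 CPM in control replicates 1 and 2 but 29.6 CPM in control replicate 3, and it was 24.7, 32.1 and 59.5 CPM in the treated libraries. The third control thus lay among the treated libraries, and the log2FC was -1.07 (SE 0.50) with it and -1.44 (SE 0.31) without it. GATA3-AS1, which lies within the GATA3 locus on the other strand so that shared reads cannot be told apart, had a log2FC of 0.05 (SE 0.23) over all 6 libraries and of 0.29 (SE 0.18) without control replicate 3. Per 100 GATA3 counts the first 2 controls had 10.2 and 9.86 GATA3-AS1 counts, the treated libraries had 24.8 to 45.2 and control replicate 3 had 53.4.

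ISL1 had 133, 129 and 154 CPM in controls and 154, 152 and 179 CPM in treated libraries, so that control replicate 3 again lay at the treated level. Its log2FC over all 6 libraries was 0.24 (FDR 0.617 in edgeR's quasi-likelihood test). HAND2 had 337, 372 and 439 against 344, 381 and 456 CPM, and its log2FC was 0.07 (SE 0.20). TBX2 had 225, 179 and 244 against 190, 192 and 104 CPM, and its log2FC was -0.39 (SE 0.27). For HAND2 and TBX2 the groups overlapped with and without control replicate 3.

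Over all 6 libraries, 0 of 7 factors were called in the pre-treatment comparison by edgeR's quasi-likelihood test, where 0.0242% of all genes were (6 genes). DESeq2 called GATA2 (FDR 0.00391) and PHOX2A (FDR 0.0295), and edgeR's exact test called GATA2 (FDR 0.0402). At an unadjusted p below 0.05, 3 of 7 factors passed, against 11.2% of all genes. The median log2FC was -0.39 over the 7 factors and -0.01 over all genes.

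Without control replicate 3, 5 of the 7 factors were called, and 26.1% of all 26350 genes tested were called as well (13.2% higher, 12.8% lower). GATA2 fell (log2FC -0.92, SE 0.14, FDR 0.00399 in edgeR's quasi-likelihood test), as did PHOX2A (log2FC -0.73, SE 0.19, FDR 0.0230) and GATA3 (log2FC -1.44, SE 0.31, FDR 0.0126). HAND1 rose (log2FC 0.51, SE 0.13, FDR 0.0213) and so did ISL1 (log2FC 0.37, SE 0.12, FDR 0.0489). HAND2 (log2FC 0.22, FDR 0.281) and TBX2 (log2FC -0.25, FDR 0.481) did not pass. GATA2 was the only factor still called when each of these 5 libraries was left out in turn, GATA3 lost its call without control replicate 2 (FDR 0.0890), PHOX2A without control replicate 2 (FDR 0.165) or treated replicate 1 (FDR 0.0545), HAND1 in 4 of the 5 cases and ISL1 in all 5. ISL1 also lost its call with DESeq2, edgeR's exact test, RLE factors, either other filter on low counts, small structured RNAs removed and the fit over both experiments (FDR 0.0510 to 0.0628), and HAND1 lost its call in the last of these (FDR 0.0865).

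The 2 rises depended on scaling. With library size alone in place of TMM factors, the log2FC of the median gene shifted by -0.22, the log2FC of ISL1 was 0.15 (FDR 0.397 in edgeR's quasi-likelihood test) and that of HAND1 was 0.29 (FDR 0.135). Calls over all genes then split into 1384 higher and 4892 lower, against 3489 higher and 3382 lower with TMM factors. GATA2, GATA3 and PHOX2A kept their calls under this scaling.

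**Figure D2:**
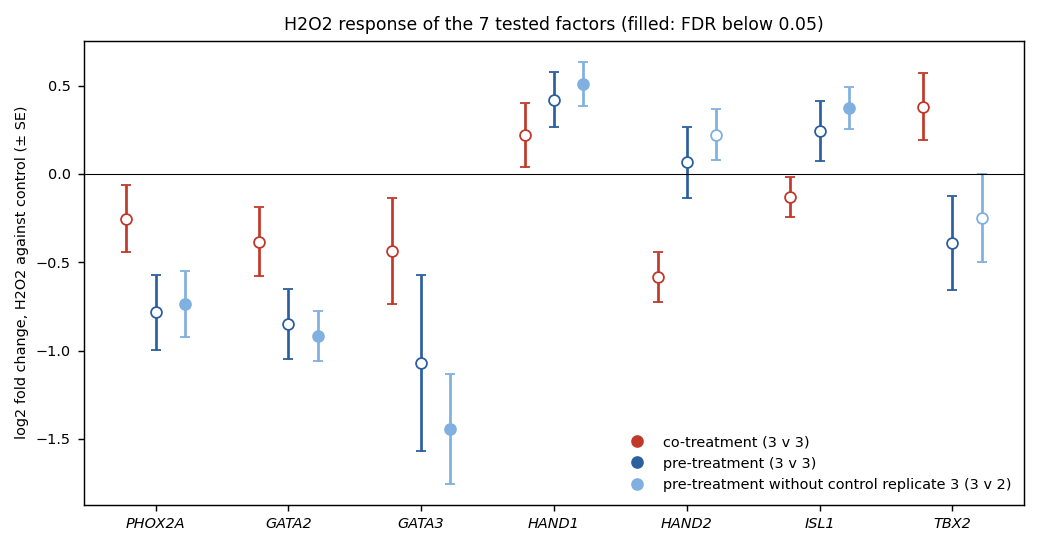
Log2 fold change of H2O2-treated against control libraries (vertical axis, ± SE) for the 7 tested factors (horizontal axis) in the co-treatment comparison, the pre-treatment comparison and the pre-treatment comparison without control replicate 3, where filled circles mark an FDR below 0.05. Filled circles appear only without control replicate 3, for PHOX2A, GATA2, GATA3, HAND1 and ISL1.

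The share of small structured RNAs moved in part with the levels of GATA2 and GATA3. The 4 libraries with the lowest shares were pre-treatment control replicates 1 and 2 (1.58% and 2.87%), co-treated replicate 1 (5.03%) and co-treatment control replicate 1 (5.30%). GATA3 was 101, 121, 40.0 and 92.2 CPM in these 4 and 24.7 to 59.5 CPM in the other 8, and GATA2 was 814, 1030, 696 and 979 CPM in these 4 and 422 to 720 CPM in the other 8. Thus 3 of these 4 libraries held the highest levels of both genes, and co-treated replicate 1 did not. PHOX2A was 273, 334, 351 and 450 CPM in these 4 and 132 to 338 CPM in the other 8. Its levels of 351 and 450 CPM thus exceeded all of the other 8, and those of 273 and 334 CPM did not. The part of this share in the results was not tested. When the small structured RNA genes were removed before scaling, 4 factors were called without control replicate 3, as were 6502 of all 25750 genes tested. That setting still compares control replicates 1 and 2 with the treated libraries, so the share and H2O2 cannot be told apart in it.

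The responses of the 2 experiments were compared as an interaction over 12 libraries, in which a positive value means a higher log2FC in the pre-treatment experiment. None of the 7 factors was called by edgeR's quasi-likelihood test or by DESeq2, and 0.0287% of all 24407 genes were called. HAND2 had a difference of 0.63 (SE 0.23, FDR 0.522 in edgeR's quasi-likelihood test) and TBX2 a difference of -0.80 (SE 0.35, FDR 0.550), and these 2 had an unadjusted p below 0.05, as did 8.94% of all genes. Without pre-treatment control replicate 3, the difference for HAND2 was 0.75 with an FDR of 0.0432. The lower HAND2 level of co-treated cells is therefore not shown to be particular to co-treatment when all libraries are used.

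Among other factors of the sympathoadrenal lineage and the adrenergic state, several fell with co-treatment. Of 18 tested, 14 had a log2FC below 0 and 5 fell, which is 27.8% of the list, while 0.263% of all genes fell. This list, like the others below, was chosen with earlier results of these data known, so its share is only a description. LMO3, a LIM-only cofactor with oncogenic activity in neuroblastoma, fell from 79.0, 82.6 and 89.1 CPM to 42.7, 40.1 and 37.2 CPM (log2FC -1.06, SE 0.12, FDR 0.00166 in edgeR's quasi-likelihood test). The LMO3 groups were far apart and it stayed called whichever of the 6 libraries was dropped. In the pre-treatment experiment LMO3 was 60.3 to 68.8 CPM in controls and 58.2 to 67.9 CPM in treated libraries (log2FC -0.02 over all 6 libraries and 0.02 without control replicate 3), and its difference between the experiments was 1.01 (SE 0.17, FDR 0.0934), which missed the threshold.

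TFAP2B, an AP-2 factor of noradrenergic differentiation, was 262, 197 and 159 CPM in controls and 122, 102 and 106 CPM in treated libraries (log2FC -0.90, SE 0.17, FDR 0.0380 in edgeR's quasi-likelihood test). Each treated library lay below each control. DACH1, a developmental repressor, fell from 32.5 ± 6.84 to 16.1 ± 1.23 CPM (SD, n = 3 each, log2FC -1.02, FDR 0.0141). INSM2, which resembles the nearly absent INSM1, fell from 2.26 ± 0.36 to 0.55 ± 0.29 CPM (log2FC -2.00, FDR 0.0409). SOX11, an SRY-box factor of the adrenergic state, was 141 ± 30.2 CPM in controls and 84.3 ± 8.60 CPM in treated libraries, with an FDR of 0.0676. Of the 18, 4 had a log2FC above 0, among them TLX2, at 237 ± 33.6 CPM in controls and 332 ± 35.3 CPM in treated libraries (log2FC 0.49, FDR 0.247).

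Of the partners and inhibitors of these factors, the inhibitors ID1, ID2 and ID3 moved. ID1, ID2 and ID3 bind the E proteins that basic helix-loop-helix factors such as HAND2 need for DNA binding. ID1 rose from 38.5, 39.6 and 43.5 CPM to 72.1, 69.3 and 64.7 CPM with co-treatment (log2FC 0.76, SE 0.12, FDR 0.0119 in edgeR's quasi-likelihood test). ID2 rose from 152 ± 19.0 to 251 ± 15.7 CPM (log2FC 0.73, FDR 0.0282), and ID3 from 108 ± 5.57 to 183 ± 10.2 CPM (log2FC 0.77, FDR 0.0113). These 3 of 16 tested genes were the calls in the list, while 0.335% of all genes rose. The E protein TCF4 was 1219 ± 57.8 CPM in controls and 909 ± 47.0 CPM in treated libraries (FDR 0.268). The inhibitor ID4 had a log2FC of -0.60 (FDR 0.781 in edgeR's quasi-likelihood test) and was below 1.2 CPM in each of the 6 libraries. Over all 6 pre-treatment libraries, ID1 had a log2FC of 0.10, ID2 of 0.45 and ID3 of -0.28, with FDR values of 0.916, 0.680 and 0.777. Without control replicate 3 these values were 0.53, 0.93 and 0.17 (FDR 0.0553, 0.0463 and 0.645 in edgeR's quasi-likelihood test). The sign of ID3 thus turned and ID2 passed the threshold.

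Among 15 tested genes of the noradrenergic phenotype, GCH1 fell with co-treatment, from 169 ± 26.7 to 101 ± 6.51 CPM (log2FC -0.74, SE 0.14, FDR 0.0329 in edgeR's quasi-likelihood test). GCH1 makes the cofactor that tyrosine hydroxylase needs. CHGA, a core protein of dense-core vesicles, was 820 ± 35.5 CPM in controls and 470 ± 132 CPM in treated libraries (log2FC -0.80, FDR 0.101), and DBH had a log2FC of -0.46 (FDR 0.550). GCH1 was the only call of this list, 6.67% of the genes tested, against 0.598% of all genes. Of the 15 genes, 9 had a log2FC above 0 and 6 below, with a median of 0.05. Among those above 0 were SPR (log2FC 0.55, FDR 0.154) and MAOA (log2FC 0.37, FDR 0.419).

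Of the calls named here, LMO3 was the only one that held in every fit with a library left out. The others held in 1 of 6 such fits (GCH1), in 2 (TFAP2B, INSM2, ID1, ID2) or in 3 (DACH1, ID3), and in the fit over both experiments LMO3 alone stayed called. With library size in place of TMM factors, TFAP2B, DACH1, INSM2 and GCH1 lost their calls and LMO3, ID1, ID2 and ID3 kept theirs. Among 16 mesenchymal-state regulators and 4 paralogues outside the lineage tested, no gene was called with co-treatment by edgeR's quasi-likelihood test, against 0.598% of all genes. At an unadjusted p below 0.05 there were 3 and 1, against 8.15% of all genes.

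**Figure D3:**
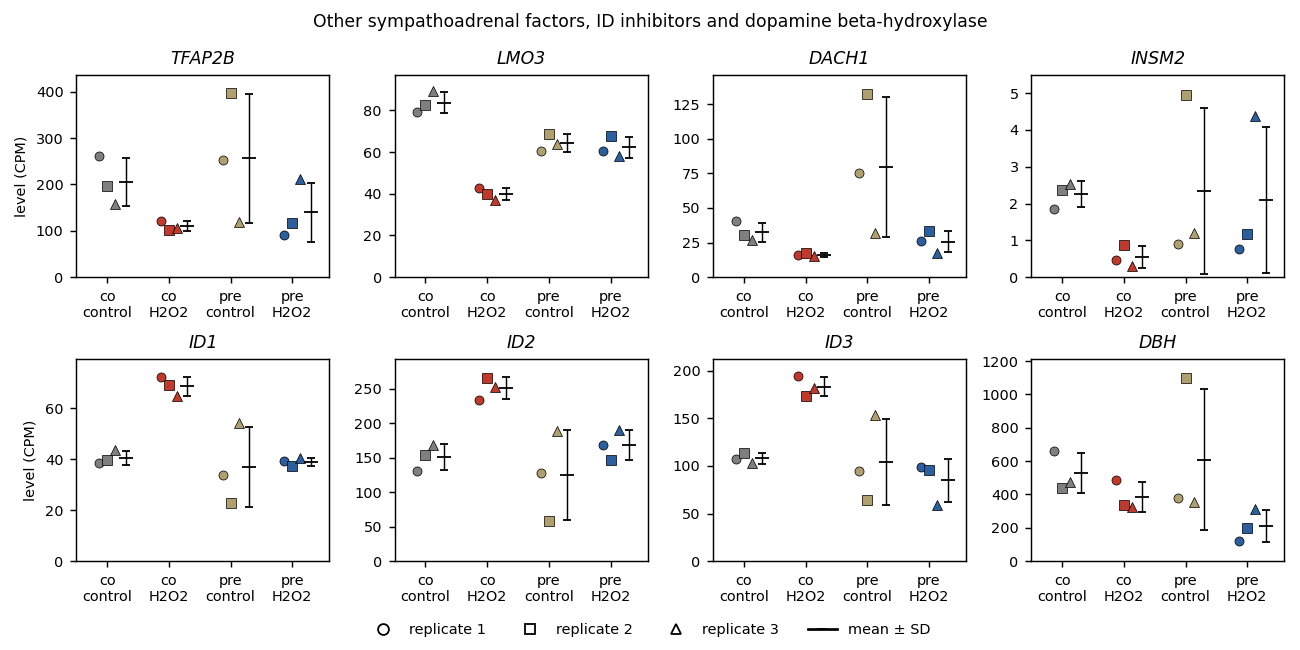
Level in CPM (vertical axes, linear, from 0) of 4 other sympathoadrenal factors, the inhibitors ID1, ID2 and ID3 and the enzyme DBH in the 12 libraries by group (horizontal axis), where shapes give replicates 1 to 3 and bars give the mean ± SD of 3 libraries. LMO3 is at 37.2 to 42.7 CPM in co-treated libraries and at 79.0 to 89.1 CPM in their controls, while its pre-treatment groups overlap.

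In the pre-treatment comparison over all 6 libraries, no gene of these lists was called by edgeR's quasi-likelihood test, with 5 of 18 other factors, 4 of 16 partners, 6 of 15 phenotype genes, 6 of 16 mesenchymal-state regulators and 1 of 5 paralogues at an unadjusted p below 0.05, against 11.2% of all genes. DBH was 377, 1097 and 354 CPM in controls and 124, 199 and 316 CPM in treated libraries, with each treated library below each control (log2FC -1.48, SE 0.50, FDR 0.338). SLC18A1, a vesicular monoamine transporter, was 76.1 ± 16.5 CPM in controls and 38.2 ± 4.84 CPM in treated libraries (log2FC -0.97, FDR 0.312). SLC6A2, the noradrenaline transporter, was 342 ± 46.3 and 217 ± 15.3 CPM (log2FC -0.63, FDR 0.320). Of the 15 phenotype genes, these 3 and QDPR and CYB561 had every treated library below every control, as did 8.47% of all genes. MAOA, which degrades monoamines, had every treated library above every control (log2FC 0.74, SE 0.29, FDR 0.395), as did 7.97% of all genes, and 7 of the 15 genes had a log2FC above 0.

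Without control replicate 3, 7 of the 18 other factors fell and none rose, which is 38.9% against the 12.8% of all genes that fell. They were TFAP2B, EYA1, SIX3, KLF7, KLF13, ZNF536 and DACH1, and the largest change was in DACH1 (log2FC -1.95, FDR 0.00341 in edgeR's quasi-likelihood test). KLF7, a Krüppel-like factor of sensory and sympathetic neurons, had a log2FC of -1.03 (FDR 0.00107). DBH (log2FC -1.72, FDR 0.0259), SLC6A2 (-0.69, FDR 0.00460) and SLC18A1 (-0.98, FDR 0.00740) fell, while PTS and MAOA rose, making 5 of 15 phenotype genes. That is 33.3% of the list, against 26.1% of all genes. When a further library was left out, KLF7, DACH1, SLC6A2 and MAOA held in each of 5 fits, ZNF536 and SLC18A1 in 4, TFAP2B, DBH and PTS in 2, and EYA1, SIX3 and KLF13 in 1. Without control replicate 2, the highest DBH library, the log2FC of DBH was -0.75 (FDR 0.273) and that of TFAP2B was -0.79 (FDR 0.237). DESeq2 called neither DBH (FDR 0.0516) nor TFAP2B (FDR 0.0936), and PTS lost its call with library size in place of TMM factors (FDR 0.0892).

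Of the partners, ID2, LMO4 and HDAC1 rose and RCOR1 fell in this comparison, which is 4 of 16. Of the mesenchymal-state regulators, TBX18 and YAP1 rose and SMAD3, AEBP1 and NOTCH2 fell. TBX18 and YAP1 stayed at or below 1.01 CPM in every library. Of the paralogues outside the lineage, GATA4 (log2FC -0.76, FDR 0.0114 in edgeR's quasi-likelihood test) and LHX4 (log2FC -0.60, FDR 0.0182) fell, 2 of 5 tested. The shares called were 25.0%, 31.3% and 40.0% in these 3 lists and 26.1% over all genes. With a further library left out, RCOR1, TBX18, SMAD3 and AEBP1 held in each of 5 fits, LMO4, NOTCH2 and GATA4 in 3, HDAC1 and YAP1 in 2, and ID2 and LHX4 in 1. The 3 rises among the partners lost their calls with library size in place of TMM factors, and ID2 also with RLE factors or small structured RNAs removed.

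Some mesenchymal cell markers moved with the treatments as well. VIM rose from 7.27 ± 2.25 to 16.2 ± 1.39 CPM with co-treatment (FDR 0.0272 in edgeR's quasi-likelihood test) and from 4.04 ± 0.97 to 21.3 ± 1.73 CPM with pre-treatment (FDR 0.0442). COL3A1 rose from 17.7 ± 4.47 to 94.3 ± 14.8 CPM with pre-treatment (FDR 0.0442). Of the 9 markers tested, 5 had a log2FC above 0 and 4 below with co-treatment. Over all 6 pre-treatment libraries, 6 were above 0 and 3 below. COL1A1 was below 0 in both, with log2FC values of -1.65 and -0.60 (FDR 0.524 and 0.744 in edgeR's quasi-likelihood test). The 10 markers summed to 401 to 550 CPM in co-treatment controls and 442 to 488 CPM in treated libraries, and to 417 to 565 and 457 to 569 CPM in the pre-treatment groups. COL1A2 stayed below 1 CPM in every library, and 1 of 9 markers tested was called with co-treatment and 2 of 9 with pre-treatment, against 0.598% and 0.0242% of all genes. Without control replicate 3, 6 of 10 markers were called, 60.0% of the list against 26.1% of all genes. VIM (log2FC 2.66), COL3A1 (2.48), DCN (2.95), SPARC (0.49) and THY1 (0.46) rose and PDGFRB (-0.70) fell. COL1A1 (-1.05) and FN1 (-0.53) were also below 0 and were not called. Neuroblast markers moved in the same comparison too. Of 8 tested, 4 were called by edgeR's quasi-likelihood test, of which 3 rose and 1 fell. The rises were in STMN2 (log2FC 0.83), ELAVL4 (0.56) and GAP43 (1.13). Over all 6 pre-treatment libraries no neuroblast marker was called. The part of the mesenchymal and neuroblast markers in the levels of the factors was not tested.

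The factors were compared with each other over the 12 libraries, as log2 CPM after each experiment's mean was subtracted, and these coefficients are descriptions that share depth, scaling and the treatment itself. PHOX2A and GATA2 were the most alike (Pearson's r 0.87), followed by GATA2 and GATA3 (0.74), PHOX2A and TBX2 (0.65) and HAND2 and ISL1 (0.61). The 2 paralogues HAND1 and HAND2 had an r of -0.03, and ISL1 and TBX2 had the lowest at -0.50.

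Among the 15791 genes with a mean of at least 1 CPM, the gene most like PHOX2A was PLD3 (r 0.983), the gene most like GATA2 was JUP (0.989) and the gene most like GATA3 was KIF26B (0.987). For HAND1 it was ABCB6 (0.939), for ISL1 it was TBP (0.931) and for TBX2 it was PIP4K2C (0.953). CCDC124 (0.936) and TWIST1 (0.929) were among the 3 genes most like HAND2. TWIST1, a basic helix-loop-helix factor that can pair with HAND2, was 178 ± 6.60 CPM in co-treatment controls and 127 ± 9.23 CPM in treated libraries (log2FC -0.48, FDR 0.124 in edgeR's quasi-likelihood test).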

How the data were processed

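Total RNA of 12 SH-SY5Y libraries was sequenced after ribosomal RNA depletion with a stranded kit. According to the methods of the study, the authors checked reads with FastQC 0.11.8, trimmed them with Cutadapt 2.10, mapped them to hg19 with HISAT2 2.1.0 and counted them per gene symbol with htseq-count 0.7.2. The authors deposited the raw counts of each library without normalization. The strand setting and the annotation version are not given in the sources used here. The 2 deposited tables of the authors' comparisons (log2 fold changes, average log2 CPM, p-values and FDR) were not used. Between 40.0% and 59.9% of the entries in each file were reads not counted on a gene, which were left out of library sizes.

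The analysis used edgeR 4.0.16, DESeq2 1.42.0 and limma 3.58.1 under R 4.3.3. The filter kept genes whose CPM, in a number of libraries equal to the smaller group's size, reached the value of 5 counts in the shallowest library. Within each experiment, treated libraries were set against controls with edgeR's quasi-likelihood test and TMM factors, and the experiments by an interaction over 12 libraries. Genes were called at an FDR below 0.05 (Benjamini-Hochberg over all genes tested). The pre-treatment comparison was also fitted without control replicate 3, which the study's clustering does not show. Exon lengths and positions come from an annotation lifted to GRCh37.

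The factors, gene lists and tests were chosen with earlier results of these data known. Every factor was named, and of each other list every gene called in any comparison, otherwise up to 4 genes with the highest mean CPM, were eligible. SOX11, TLX2, ID4, SPR, QDPR, CYB561 and the markers TH, SOX10, FOXD3, COL1A1, COL1A2 and FN1 were named in addition after their values were seen. The 3 most similar genes of each factor were ranked by Pearson's r. Some genes that these rules give are not reported here. Alternatives were DESeq2, edgeR's exact test, RLE factors, library size, removal of small structured RNAs, other filters, a replicate block, a log2FC threshold of 1, a fit over both experiments and each library left out.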

Additional observations from a re-analysis of the deposited data

How the results depend on the processing

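Over all genes, the co-treatment comparison called 132 (74 higher, 58 lower), and DESeq2 called 344, edgeR's exact test 339, library size alone 80 (57 higher, 23 lower), no filter on low counts 535 (223 higher, 312 lower), a log2FC threshold of 1 left 81, and the fit over both experiments 3. Leaving out single libraries gave 18 to 223 genes, the lowest without treated replicate 3, and 0 factors each time. DESeq2, no filter and the exact test each called 1 factor, HAND2.

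The pre-treatment comparison called 6 genes, against 705 with DESeq2, 281 with the exact test, 319 without a filter, 1 with library size alone and 70 in the fit over both experiments. Leaving out single libraries gave 0 to 6871 genes and 0 to 5 factors, the highest without control replicate 3. DESeq2 called 2 factors and the exact test called 1. Without control replicate 3, a log2FC threshold of 1 left 2952 of 6871 genes and 1 of 5 factors, and library size alone and the fit over both experiments each called 3 factors. Leaving out a further library gave 1677 to 8577 genes, the lowest without control replicate 2, and 1 to 4 factors. The difference between the experiments called 7 genes (6 higher, 1 lower), against 108 with DESeq2, 4 with library size alone and 272 without a filter (109 higher, 163 lower), and 0 to 2058 genes with 0 to 1 factors when single libraries were left out, the highest without pre-treatment control replicate 3.

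With the replicate number as a block, the co-treatment comparison called 181 genes (88 higher, 93 lower), the pre-treatment comparison 0 (1957 genes at an unadjusted p below 0.05), the comparison without control replicate 3 called 10755, and the difference 0. The block changed no call of a factor. For replicate numbers 1 to 3, treated and control deviations from their group means had correlations of -0.0785, -0.0786 and -0.0435 (co-treatment) and of -0.225, 0.0264 and -0.273 (pre-treatment), so the numbers were not taken to pair the libraries.

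With single libraries left out, directions turned for GATA3 in the co-treatment comparison (log2FC -0.72 to 0.16, positive without control replicate 1), for HAND2 in the pre-treatment comparison (-0.056 to 0.22, with -0.029 when control replicate 1 was dropped and -0.056 when treated replicate 3 was) and for HAND1 in the difference (-0.037 to 0.36, negative without co-treatment control replicate 1). None of these was called, and the causes of the changes were not tested. INSM1 alone among the factors failed the filter on low counts.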
